A study of Mus musculus with 15 samples.

Results

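The genes described are 10 trophic and growth factor genes, Igf1, Vegfa, Vegfb, Vegfc, Pdgfa, Pdgfb, Pdgfc, Hbegf, Areg, and Bmp2, which encode factors for stroma, vessels, epithelium, and enteric neurons. They were taken from a list of symbols and by no rule on measured values, though earlier results of these data were known. All 10 were found among the 19456 genes of the deposited counts. RNA was sequenced from sorted cells of WT adult male C57BL/6 mice, with no treatment or transgene in any group. Ly6Chi monocytes from blood gave 3 libraries, and the small intestine gave 4 libraries for each of 3 macrophage subsets: Tim-4-CD4- macrophages, with neither surface protein, Tim-4-CD4+ macrophages, with CD4 alone, and Tim-4+CD4+ macrophages, with both. Each library pooled 3 mice, except monocyte replicate 2, which pooled 4, so p-values measure the spread between pools and not between single animals. The comparisons asked which factors the gut macrophages transcribed beyond Ly6Chi blood monocytes, and whether the subsets divided these factors between them. The paper found Tim-4+CD4+ macrophages to be locally maintained and Tim-4-CD4+ macrophages to be replaced slowly from monocytes. Monocytes are therefore a reference here and not the recent precursor of every subset.

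Resident macrophages support the tissue around them by secreting such proteins. IGF1 is a survival and growth factor that signals through a receptor tyrosine kinase. VEGF-A drives the sprouting of blood vessels, VEGF-B binds the receptor Flt1, and VEGF-C is the main lymphatic growth factor. The PDGF chains pair into dimers that recruit fibroblasts and pericytes through the PDGF receptors, and HB-EGF and amphiregulin, the product of Areg, are shed from the cell surface and bind the EGF receptor on epithelium. BMP2 signals through serine/threonine kinase receptors and Smad proteins, and in the gut wall macrophage BMP2 is known to act on enteric neurons.

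The promoters of the 4 members that changed in at least 2 of the comparisons between subsets, as given below, are shown so that the sequence can be read beside the levels. Each run is the 250 bases before the RefSeq start, in build GRCm38.p6 and in the direction of the gene. Capitals mark matches, on either strand, to 7 short motifs, which were the TATA box (TATAAA), the cAMP response element (TGACGTCA), the AP-1 motif (TGANTCA), the core of the hypoxia response element (ACGTG), the GC box (GGGCGG), the PU.1 core (GAGGAA, or TTCCTC on the other strand), and the C/EBP motif (TTGCNNCAA). The matches do not overlap each other. The windows were chr10:87860861-87861110 (+) for Igf1, chr3:81036166-81036415 (+) for Pdgfc, chr17:46032378-46032627 (-) for Vegfa, and chr5:91139349-91139598 (+) for Areg.
Igf1: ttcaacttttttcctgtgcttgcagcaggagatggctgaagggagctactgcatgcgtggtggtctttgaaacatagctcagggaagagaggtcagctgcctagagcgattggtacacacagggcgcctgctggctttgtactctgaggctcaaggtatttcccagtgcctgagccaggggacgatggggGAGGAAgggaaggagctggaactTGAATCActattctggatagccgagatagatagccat
Pdgfc: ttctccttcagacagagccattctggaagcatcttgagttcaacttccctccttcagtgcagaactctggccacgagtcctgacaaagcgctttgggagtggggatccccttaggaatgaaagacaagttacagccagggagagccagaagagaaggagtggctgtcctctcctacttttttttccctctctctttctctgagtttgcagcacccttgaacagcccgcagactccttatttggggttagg
Vegfa: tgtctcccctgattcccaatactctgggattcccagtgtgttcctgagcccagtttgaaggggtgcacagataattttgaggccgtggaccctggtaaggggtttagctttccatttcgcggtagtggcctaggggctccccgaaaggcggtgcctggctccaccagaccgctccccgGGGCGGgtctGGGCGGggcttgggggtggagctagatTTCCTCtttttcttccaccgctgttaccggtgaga
Areg: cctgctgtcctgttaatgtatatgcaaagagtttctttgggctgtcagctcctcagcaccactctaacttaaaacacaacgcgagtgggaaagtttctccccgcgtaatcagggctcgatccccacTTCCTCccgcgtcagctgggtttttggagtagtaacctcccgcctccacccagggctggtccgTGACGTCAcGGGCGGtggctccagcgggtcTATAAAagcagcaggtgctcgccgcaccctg
Of the members that were higher in the CD4+ subsets, Igf1 and Pdgfc had no TATA box and no GC box in these windows, and Vegfb, which was higher in Tim-4+CD4+ than in Tim-4-CD4- macrophages and is not printed, had 4 GC boxes, at 180, 121, 115, and 104 bases before its start. Igf1 had a PU.1 core beginning 60 bases before the start and an AP-1 match at 37 bases, and Pdgfc had no match to any of the 7 motifs. Of the members that were lower, Vegfa had GC boxes at 72 and 62 bases and a PU.1 core at 35 bases. Among the 7 members whose promoters were read, Areg alone had a TATA box, at 31 bases, and a cAMP response element, at 61 bases. It also had a GC box at 52 bases and a PU.1 core at 124 bases. Among all 32851 promoters in the RefSeq table, windows of the same length held the TATA box in 12.4%, the cAMP response element in 1.55%, the AP-1 motif in 6.75%, the hypoxia core in 16.6%, the GC box in 32.7%, the PU.1 core in 23.3%, and the C/EBP motif in 1.74%. Promoters were read for 7 of the members, with 2 entries each for Vegfa and Pdgfa, and those of Hbegf, Pdgfb, and Bmp2 are not reported here. In the other Vegfa window, inside the gene, a match to the hypoxia core began 211 bases before the start. The Igf1 window precedes a RefSeq start that lies inside the annotated gene. A match is a description of these letters and not a binding site.

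The sorted cells carried the transcripts of the proteins used to sort them. Timd4, which encodes Tim-4, averaged 355.5 CPM (counts scaled to the normalized library total) in Tim-4+CD4+ macrophages, 1.70 in the Tim-4-CD4+ subset, and 1.11 in Tim-4-CD4-. Cd4 averaged 816, 531, and 22.9 CPM in the same order. The macrophage markers C1qa, C1qb, Mertk, Csf1r, Adgre1, Fcgr1, Cx3cr1, and Itgam summed to between 13260 and 18330 CPM in the macrophage libraries and to at most 3867 in monocytes. Of these, Fcgr1 and Itgam had no part in the rise. Fcgr1 averaged 279 CPM in monocytes and 268 to 300 in the subsets, and Itgam 353 in monocytes and 209 to 346 in the subsets. Ly6c2 averaged 1092 CPM in monocytes and at most 1.72 in a subset. Total counts per library ran from 39388763 to 151510641. Tim-4-CD4- replicate 3 had the highest Epcam level of its group (10.8 CPM, with a lowest value of 1.42) and the highest sum of dendritic cell markers (89.7 CPM), and no call on a member described below was lost when it or any other library was left out.

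Each subset contained more transcript of 9 of the 10 members than monocytes did, and Vegfc was the exception in each comparison. Of all 15802 genes tested, 65.3% were called for Tim-4-CD4- macrophages (37.2% higher and 28.1% lower than in monocytes), 69.6% for Tim-4-CD4+ (38.9% and 30.7%), and 70.5% for Tim-4+CD4+ (39.3% and 31.2%) (edgeR quasi-likelihood test, Benjamini-Hochberg adjusted p under 0.05). These shares are the background against which the 9 members stand. The median log2 fold change of the members was 7.35, 7.28, and 7.69 in these comparisons, beside 0.08, 0.11, and 0.10 for all genes tested. The 3 comparisons share the monocyte libraries. In sorted bulk samples, fewer cells of a type and less RNA per cell cannot be told apart.

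Bmp2 (chr2:133552159-133562885, positions of genes from GENCODE M21 on GRCm38) was close to absent from monocytes, with 0 to 3 counts per library, and the 3 libraries held 5 counts in all. Its level was 52.0, 56.3, 76.6, and 63.4 CPM in the Tim-4-CD4- libraries, 82.1, 57.9, 59.5, and 44.9 in Tim-4-CD4+, and 42.8, 70.3, 65.8, and 48.8 in Tim-4+CD4+. All 12 macrophage libraries lay far above the monocyte libraries and the subsets overlapped each other. Pooled over libraries, the ratio to monocytes was 3650 in Tim-4-CD4- (95% counting interval 1560 to 11200), 3360 in Tim-4-CD4+ (1440 to 10300), and 3420 in Tim-4+CD4+ (1470 to 10500). These intervals cover counting error only. Between subsets the log2 differences of Bmp2 were -0.02 ± 0.19 (SE; adjusted p = 0.97), -0.12 ± 0.19 (0.69), and -0.10 ± 0.19 (0.84) for Tim-4-CD4+ against Tim-4-CD4-, Tim-4+CD4+ against Tim-4-CD4-, and Tim-4+CD4+ against Tim-4-CD4+. The approximate 95% intervals reached from -0.49 to 0.34 on the log2 scale. Bmp4, the closest relative of Bmp2, averaged 1.42, 1.27, and 1.90 CPM in the subsets and had no count in monocytes. Per kilobase of exon, the median ratio of Bmp2 to Bmp4 was 27.1 in Tim-4-CD4-, 31.4 in the Tim-4-CD4+ subset, and 20.5 in Tim-4+CD4+ libraries.

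Pdgfb (chr15:79995874-80014977), which encodes the PDGF chain that recruits pericytes, had the highest level of the members in CPM in all 4 populations, and per length in the 3 subsets and in monocytes. Its CPM was 11.7, 12.7, and 17.8 in monocytes and ran from 145.6 to 204 over the 12 macrophage libraries. The monocyte libraries lay below every macrophage library. Pdgfb was 11.1-fold higher in Tim-4-CD4-, 12.04-fold in the Tim-4-CD4+ subset, and 12.1-fold in Tim-4+CD4+ macrophages (largest adjusted p = 1.1e-12). Pdgfa (chr5:138976014-138997370) was 0.220, 0.292, and 0.799 CPM in monocytes and ran from 13.9 to 22.9 in macrophages. It was 46.2-, 43.5-, and 41.4-fold higher in the subsets in the same order (largest adjusted p = 7e-10). Neither chain was called between subsets: the log2 differences ran from 0.00 to 0.12 for Pdgfb and from -0.16 to -0.07 for Pdgfa, with SE of 0.12 and 0.23. The noncoding gene 6330403L08Rik overlaps 813 exonic bases of Pdgfa on the opposite strand, and whether counting used strand is not given in the sources used here, and without strand reads of the pair cannot be told apart.

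Pdgfc (chr3:81036416-81214040), whose chain signals mainly through the alpha receptor on fibroblasts, was the PDGF gene that differed between subsets. It had 10 counts in all in monocytes. Its level was 11.97, 14.2, 9.49, and 8.21 CPM in Tim-4-CD4- libraries, 23.4, 22.5, 32.9, and 30.98 in the Tim-4-CD4+ subset, and 37.0, 40.6, 45.1, and 35.9 in Tim-4+CD4+. The 3 subsets did not overlap, with Tim-4+CD4+ highest. Pdgfc was 2.50-fold higher in Tim-4-CD4+ than in Tim-4-CD4- macrophages (log2 1.32 ± 0.19 SE, edgeR adjusted p = 0.00025) and 3.60-fold higher in Tim-4+CD4+ (1.85 ± 0.20, adjusted p = 2.5e-06). The difference of Tim-4+CD4+ from Tim-4-CD4+ was 0.53 ± 0.19 (adjusted p = 0.17), and its adjusted p ran from 0.051 to 0.42 over the alternatives. Against monocytes the pooled ratio was 338 (183 to 705) in Tim-4-CD4-, 867 (471 to 1810) in the Tim-4-CD4+ subset, and 1180 (639 to 2450) in Tim-4+CD4+. As a share of Pdgfa, Pdgfb, and Pdgfc together, per kilobase of exon, Pdgfc made up 4.72% ± 0.96 (SD, n = 4), 10.5% ± 1.38, and 14.6% ± 1.67 in the subsets, and Pdgfb 82.7%, 79.0%, and 75.9%. Pdgfd averaged at most 0.175 CPM in a subset. An antisense gene, Gm16000, which is not in the counts, overlaps 147 exonic bases of Pdgfc on the opposite strand. The limit on strand given for Pdgfa holds for Pdgfc too.

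**Figure D1:**
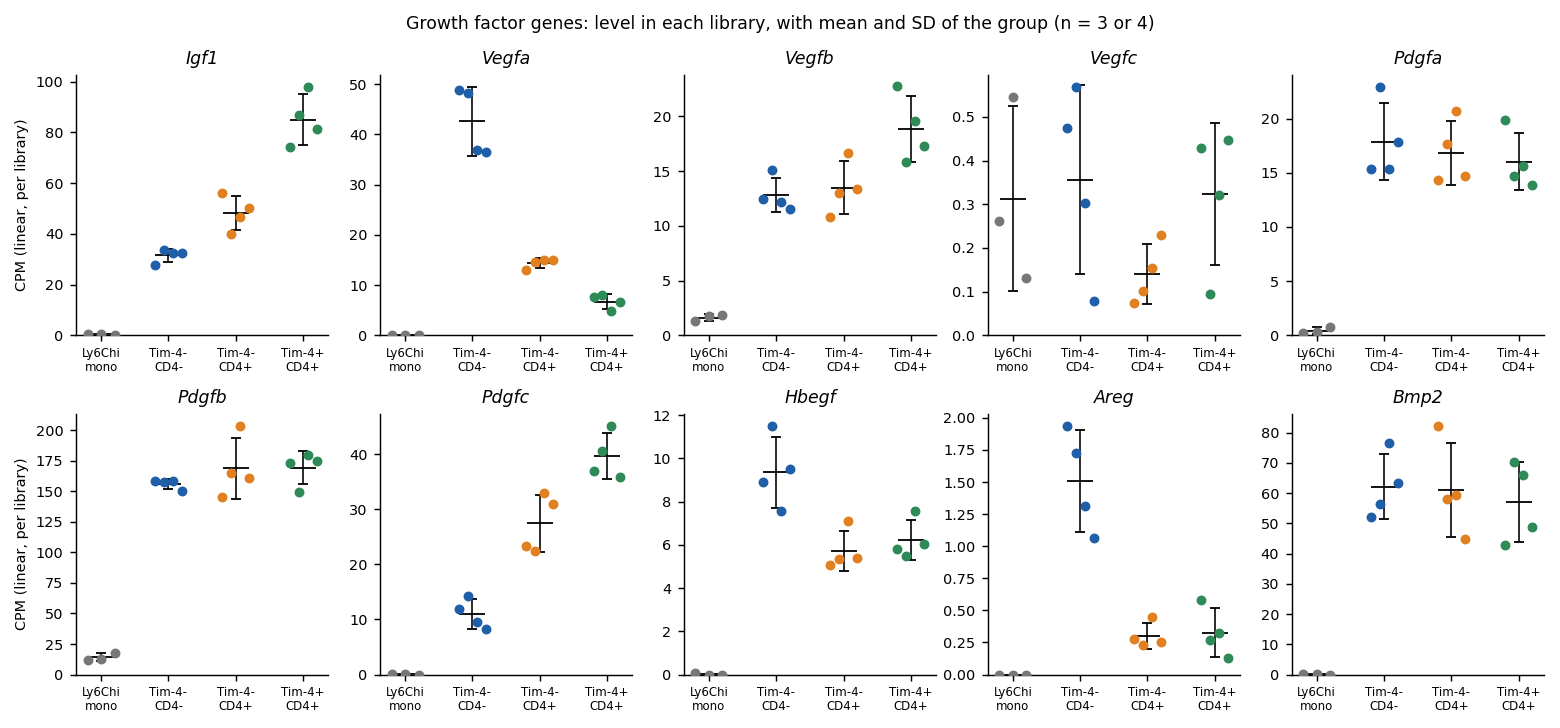
Level of each of the 10 members in every library, in CPM on linear axes from 0 that differ between panels, with the mean (bar) and SD of each group (3 monocyte and 4 libraries per subset). Igf1 and Pdgfc step up and Vegfa steps down over the 3 subsets, left to right, without overlap, Areg is lower in both CD4+ subsets, and Pdgfa, Pdgfb, and Bmp2 overlap between subsets.

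Igf1 (chr10:87858265-87937042) rose along the same order. It was 0.305, 0.564, and 0.204 CPM in monocytes. Its level was 27.9, 33.7, 32.4, and 32.4 CPM in Tim-4-CD4- libraries, 56.1, 39.9, 46.4, and 50.2 in the Tim-4-CD4+ subset, and 74.1, 86.9, 97.9, and 81.2 in Tim-4+CD4+. No library of one population overlapped another population. Igf1 was 84.2-fold higher than in monocytes in Tim-4-CD4- macrophages, 128-fold in the Tim-4-CD4+ subset, and 227-fold in Tim-4+CD4+ (largest adjusted p = 8.1e-14). Between subsets it was 1.53-fold higher in Tim-4-CD4+ than in Tim-4-CD4- (log2 0.61 ± 0.15, edgeR adjusted p = 0.012), 2.69-fold higher in Tim-4+CD4+ than in Tim-4-CD4- (1.43 ± 0.15, adjusted p = 1.6e-06), and 1.76-fold higher in Tim-4+CD4+ than in Tim-4-CD4+ (0.82 ± 0.15, adjusted p = 0.0023).

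Among the members, 4 were called for Tim-4-CD4+ against Tim-4-CD4- macrophages, beside 9.99% of all genes tested. Igf1 and Pdgfc were higher, beside 4.53% of all genes, and Vegfa and Areg lower, beside 5.46%. For Tim-4+CD4+ against Tim-4-CD4- macrophages 5 were called, beside 23.2% of all genes: the same 4 in the same directions, and Vegfb, which was higher (11.3% of all genes were higher and 11.9% lower). For Tim-4+CD4+ against Tim-4-CD4+ macrophages 2 were called, beside 3.58% of all genes, Igf1 higher (2.18% of all genes) and Vegfa lower (1.4%). The median log2 fold change of the members was -0.06, -0.14, and 0.12 in these comparisons, beside -0.00 for all genes in each. Libraries did not overlap for 5, 5, and 3 of the 10 members, beside 19.1%, 26.4%, and 9.63% of all genes tested. The subset comparisons share libraries with each other, so the directions of a member in them are not independent.

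**Figure D2:**
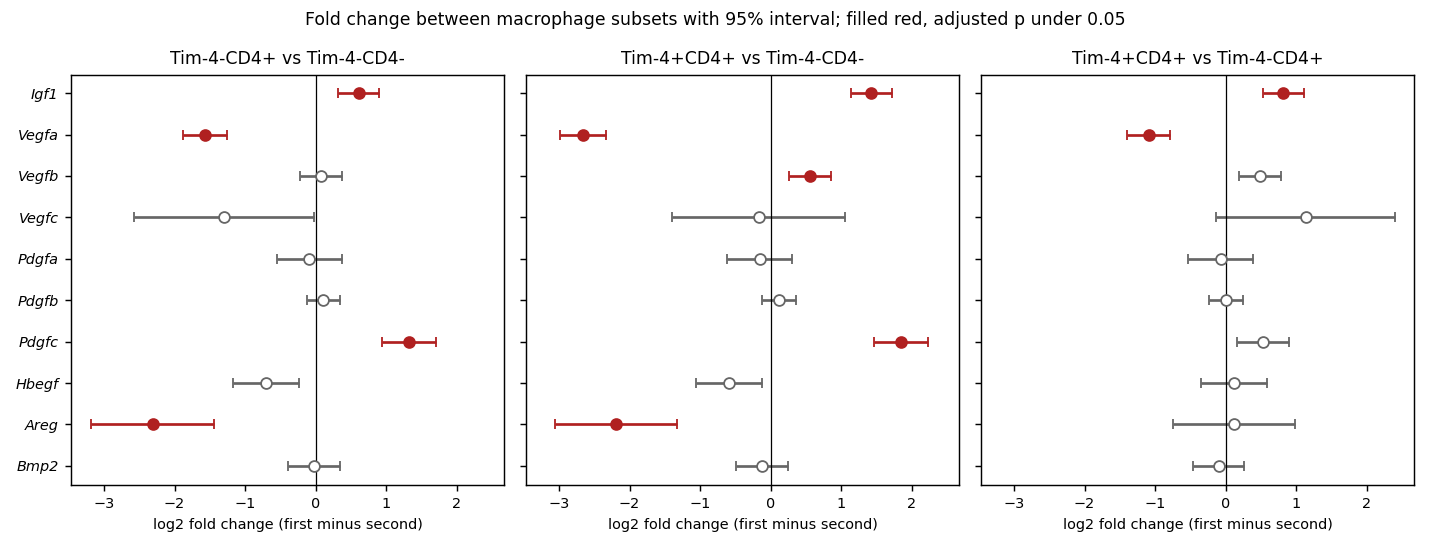
Log2 fold change of each member in the 3 comparisons between macrophage subsets (horizontal axis, first named subset minus second). Bars are approximate 95% intervals, from the SE of the fit over 15 libraries and a normal quantile. Filled red points mark adjusted p under 0.05, which are Igf1, Vegfa, Pdgfc, and Areg on the left, these and Vegfb in the middle, and Igf1 and Vegfa on the right.

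Vegfa (chr17:46016993-46032369) ran against Igf1. Monocytes held 9 counts in 3 libraries. Its level was 48.8, 48.2, 36.9, and 36.4 CPM in Tim-4-CD4- libraries, 12.9, 14.6, 14.9, and 14.97 in the Tim-4-CD4+ subset, and 7.56, 7.97, 4.74, and 6.57 in Tim-4+CD4+. The subsets did not overlap, and even the lowest Tim-4+CD4+ library lay above every monocyte library, the highest of which was 0.0743 CPM. Vegfa was 2.97-fold lower in Tim-4-CD4+ than in Tim-4-CD4- macrophages (log2 -1.57 ± 0.16, edgeR adjusted p = 4.1e-06), 6.33-fold lower in Tim-4+CD4+ than in Tim-4-CD4- (-2.66 ± 0.16, adjusted p = 2.6e-09), and 2.13-fold lower in Tim-4+CD4+ than in Tim-4-CD4+ (-1.09 ± 0.16, adjusted p = 0.0003). The pooled ratio to monocytes was 1440 (757 to 3150), 482 (254 to 1050), and 232 (122 to 508) in the order Tim-4-CD4-, Tim-4-CD4+, Tim-4+CD4+. Per kilobase of exon, Vegfa was above Igf1 in all 4 Tim-4-CD4- libraries (ratio 2.60 to 4.05) and below it in all Tim-4-CD4+ (0.533 to 0.843) and Tim-4+CD4+ libraries (0.112 to 0.236).

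Vegfb (chr19:6982473-6987651) was the VEGF gene already present in monocytes, at 1.27, 1.75, and 1.82 CPM. It was 12.4, 15.1, 12.1, and 11.5 CPM in Tim-4-CD4- libraries, 10.8, 13.0, 16.6, and 13.4 in the Tim-4-CD4+ subset, and 22.7, 15.8, 19.6, and 17.3 in Tim-4+CD4+. All Tim-4+CD4+ libraries lay above all Tim-4-CD4- libraries, and the Tim-4-CD4+ libraries overlapped both. Vegfb was 8.01-, 8.43-, and 11.8-fold higher in the subsets than in monocytes (largest adjusted p = 1.6e-10) and 1.47-fold higher in Tim-4+CD4+ than in Tim-4-CD4- macrophages (log2 0.56 ± 0.15, adjusted p = 0.012). Its differences were 0.07 ± 0.15 (adjusted p = 0.85) for Tim-4-CD4+ against Tim-4-CD4- and 0.49 ± 0.15 (adjusted p = 0.10) for Tim-4+CD4+ against Tim-4-CD4+. The latter passed the threshold without Tim-4-CD4+ replicate 3 (adjusted p = 0.038).

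Vegfc (chr8:54077606-54187096) stayed low in all populations. It was 0.262, 0.545, and 0.130 CPM in monocytes and 0.0733 to 0.570 in macrophage libraries, from 3 to 44 counts. The populations overlapped, the SE of the log2 differences ran from 0.63 to 0.68, and no comparison was called. A change of 2-fold or more was within the approximate 95% interval of every comparison, so such a difference was not excluded at this depth and spread.

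Placental growth factor (Pgf), a further ligand of Flt1 and not a member, was the most abundant gene of the VEGF family per length in each subset. It was 50.5, 45.2, 51.7, and 50.2 CPM in Tim-4-CD4- libraries, 124, 161, 134, and 148 in the Tim-4-CD4+ subset, and 217, 173, 135, and 156 in Tim-4+CD4+. Both CD4+ subsets lay above every Tim-4-CD4- library and overlapped each other. Pgf was 2.87-fold higher in Tim-4-CD4+ (edgeR adjusted p = 1.3e-05) and 3.45-fold higher in Tim-4+CD4+ (adjusted p = 5.8e-07) than in Tim-4-CD4- macrophages. Of Vegfa, Vegfb, Vegfc, and Pgf together per kilobase of exon, Vegfa made up 28.2% ± 3.15 (SD, n = 4) in Tim-4-CD4-, 5.54% ± 0.33 in the Tim-4-CD4+ subset, and 2.18% ± 0.35 in Tim-4+CD4+ macrophages, and Pgf 48.7%, 80.5%, and 81.1%. In monocytes, where the sum is low, Vegfb made up 84.0%.

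**Figure D3:**
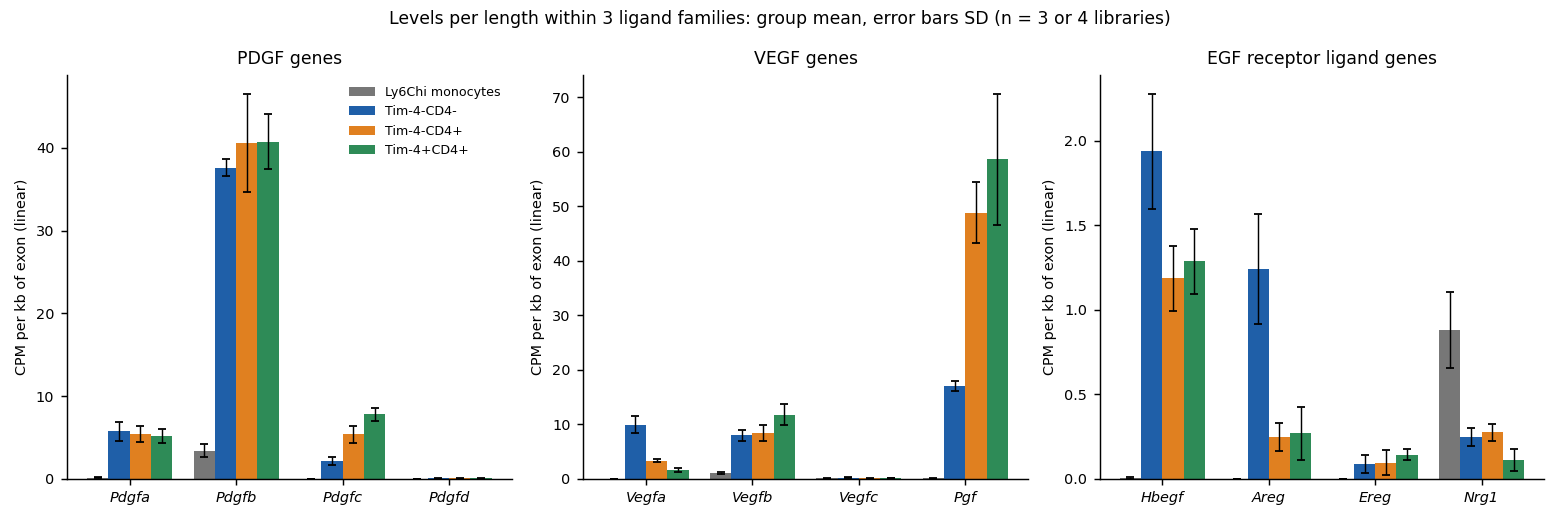
Mean level per kilobase of exon (CPM per kb, linear axes from 0) of PDGF, VEGF, and EGF receptor ligand genes in the 4 populations, with SD error bars (3 monocyte and 4 libraries per subset). Pdgfb is the highest PDGF gene in each population, Pgf is the highest VEGF gene in each subset, and Vegfa and Areg are highest in Tim-4-CD4- macrophages.

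Areg (chr5:91139599-91148432) was the least abundant of the members that changed between subsets. Monocytes held 0 counts, which allows up to 0.0213, 0.0292, and 0.0557 CPM in the 3 libraries (3 counts each). Its level was 1.94, 1.73, 1.31, and 1.06 CPM in Tim-4-CD4- libraries, 0.275, 0.228, 0.448, and 0.257 in the Tim-4-CD4+ subset, and 0.584, 0.267, 0.322, and 0.133 in Tim-4+CD4+. All Tim-4-CD4- libraries lay above all libraries of both CD4+ subsets, which overlapped each other. Areg was 4.96-fold lower in Tim-4-CD4+ (log2 -2.31 ± 0.45, edgeR adjusted p = 0.003) and 4.57-fold lower in Tim-4+CD4+ (-2.19 ± 0.44, adjusted p = 0.0017) than in Tim-4-CD4- macrophages, from 8 to 106 counts per library. The CD4+ subsets differed by 0.12 ± 0.44 (adjusted p = 0.93). Against a floor of 3 counts over the monocyte group, Areg was at least 155-fold higher in Tim-4-CD4- macrophages, 30.0-fold in the Tim-4-CD4+ subset, and 34.6-fold in Tim-4+CD4+.

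Other cells of the gut also transcribe Areg, and their markers were read beside it. The shares of all genes called between subsets, given above for the members, are the background for the counts of markers. The 8 T cell and innate lymphoid cell (ILC) markers summed to 17.3 to 22.7 CPM in Tim-4-CD4- libraries, 16.2 to 24.9 in the Tim-4-CD4+ subset, and 11.2 to 14.7 in Tim-4+CD4+. For Tim-4-CD4+ against Tim-4-CD4- macrophages 2 of the 8 were higher (Cd3e and Lat) and 0 lower, and for Tim-4+CD4+ against Tim-4-CD4- 1 was higher (Lat) and 2 lower (Il7r and Il1rl1). Il1rl1, the IL-33 receptor of ILC2 and mast cells, averaged 8.64, 5.68, and 3.35 CPM in the subsets. The mast cell and granulocyte markers, 6 of 8 of which were in the table, summed to 5.91 to 9.44, 8.87 to 10.4, and 11.2 to 17.4 CPM in the subsets, and of 3 tested, Siglecf was called, higher in Tim-4+CD4+ than in Tim-4-CD4-. Of the mast cell protease genes, Mcpt1 averaged 0.135, 0.0292, and 0.138 CPM and Mcpt2 0.0461, 0.0165, and 0.0341 CPM, and Cpa3 had no count in any Tim-4-CD4- or Tim-4-CD4+ library and averaged 0.0496 CPM in Tim-4+CD4+. Dendritic cell markers summed to 43.2 to 89.7, 30.8 to 39.1, and 29.5 to 45.8 CPM in the subsets, and of 6 tested, 1 was lower in Tim-4-CD4+ (Flt3) and 3 were lower in Tim-4+CD4+ macrophages (Flt3, Itgae, and Ccr7). Ccr2, the chemokine receptor gene of monocytes, averaged 2630 CPM in monocytes and 660, 84.1, and 8.39 CPM in the subsets. Epithelial markers summed to 12.7 to 30.4, 18.1 to 24.0, and 18.7 to 28.8 CPM, with 3 of 7 higher (Vil1, Fabp2, and Krt20) and 1 lower (Cdh1) in each CD4+ subset than in Tim-4-CD4-. The part of these cells in the Areg and Vegfa levels was not tested.

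Hbegf was absent from 2 of the 3 monocyte libraries and had 7 counts in the other. Its level was 8.91, 11.5, 7.55, and 9.50 CPM in Tim-4-CD4- libraries, 5.07, 5.36, 7.10, and 5.39 in the Tim-4-CD4+ subset, and 5.81, 5.47, 7.56, and 6.04 in Tim-4+CD4+. The Tim-4-CD4+ libraries all lay below those of Tim-4-CD4- macrophages, and 1 Tim-4+CD4+ library reached their range. The differences from Tim-4-CD4- were -0.71 ± 0.24 (log2; edgeR adjusted p = 0.073) and -0.59 ± 0.24 (adjusted p = 0.084), and neither passed the threshold. DESeq2 called both (adjusted p = 0.0016 and 0.0074), and so did edgeR without monocyte replicate 1 (0.012 and 0.017) or replicate 2 (0.035 and 0.045), with only the 2 groups compared (0.0086 and 0.021), and with counts thinned to the smallest library (0.026 and 0.041). The pooled ratio of Hbegf to monocytes was 403 (195 to 1000), 245 (118 to 609), and 257 (125 to 641). Of Hbegf and Areg together per kilobase of exon, Hbegf made up 61.1% ± 6.54 (SD, n = 4) in Tim-4-CD4-, 83.0% ± 2.42 in the Tim-4-CD4+ subset, and 83.2% ± 8.58 in Tim-4+CD4+ macrophages.

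The receptors and modifiers of these factors were read from lists chosen by family. In the EGF list, 10 of 14 genes were tested, and Nrg1, the neuregulin 1 gene, was lower and Rhbdf1 and Rhbdf2, which encode the iRhom partners of the sheddase ADAM17, were higher in Tim-4+CD4+ than in Tim-4-CD4- macrophages. Rhbdf1 was 28.2, 27.7, 28.1, and 25.4 CPM in Tim-4-CD4- and 49.4, 40.2, 35.4, and 45.8 in Tim-4+CD4+ libraries, without overlap (1.56-fold, adjusted p = 0.002). Rhbdf2 was 1.48-fold higher (adjusted p = 0.0019), and at 126.5 CPM monocytes were above all subsets. Nrg1 averaged 1.14 CPM in the Tim-4+CD4+ subset and 2.54 in Tim-4-CD4- (2.20-fold lower, adjusted p = 0.011), the 2 subsets overlapped, and it was 9.11 CPM in monocytes. Egfr, the receptor gene, averaged 0.579 to 0.668 CPM in the subsets, and Adam17 averaged 243.5 to 267 CPM. For Tim-4-CD4+ against Tim-4-CD4- macrophages edgeR called 0 of the 10 and DESeq2 0, and 1 had an unadjusted p under 0.05. For Tim-4+CD4+ against Tim-4-CD4+, Nrg1 was lower (adjusted p = 0.019), a call lost without Tim-4-CD4+ replicate 2 or 4 or Tim-4+CD4+ replicate 1, 3, or 4 and with only the 2 groups compared.

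In the BMP list, 18 of 23 genes were tested. Bmpr1a, a type I BMP receptor gene, was 0.694, 0.620, 1.31, and 1.60 CPM in Tim-4-CD4-, 4.93, 3.82, 2.43, and 1.97 in the Tim-4-CD4+ subset, and 6.46, 7.54, 9.53, and 8.74 in Tim-4+CD4+ libraries. The subsets did not overlap, while Bmp2 itself overlapped in all of them. Bmpr1a was 3.12-fold higher in Tim-4-CD4+ (adjusted p = 0.0034) and 7.71-fold higher in Tim-4+CD4+ (adjusted p = 5.8e-06) than in Tim-4-CD4- macrophages. It was 2.47-fold higher in Tim-4+CD4+ than in Tim-4-CD4+ (adjusted p = 0.026), and this call was lost when replicate 3 or 4 of either subset was left out (highest adjusted p = 0.087). Smad6, which encodes an inhibitor of BMP signaling, was 1.82-fold higher in Tim-4-CD4+ (adjusted p = 0.0028) and 2.54-fold higher in Tim-4+CD4+ macrophages (adjusted p = 1.6e-05). Id3, a known target gene of BMP signaling, was lower: it was 23.5, 32.1, 18.4, and 24.3 CPM in Tim-4-CD4-, 6.78, 6.95, 11.5, and 6.37 in the Tim-4-CD4+ subset, and 6.01, 5.04, 7.04, and 5.47 in Tim-4+CD4+ libraries. Id3 was 3.11-fold lower in Tim-4-CD4+ (adjusted p = 2.2e-05) and 4.18-fold lower in Tim-4+CD4+ (adjusted p = 4.8e-07), and Id2 was 1.46-fold lower in Tim-4+CD4+ (adjusted p = 0.0066). These were the edgeR calls of the list against Tim-4-CD4- macrophages, 2 higher and 1 lower for the Tim-4-CD4+ subset. For Tim-4+CD4+ they were 2 higher and 2 lower, and DESeq2 called 3 and 6 genes in the 2 comparisons. Of all genes tested, edgeR called 9.99% and 23.2% in the same comparisons. Bmpr2 averaged 86.6 to 112 CPM in the subsets and 163 in monocytes.

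**Figure D4:**
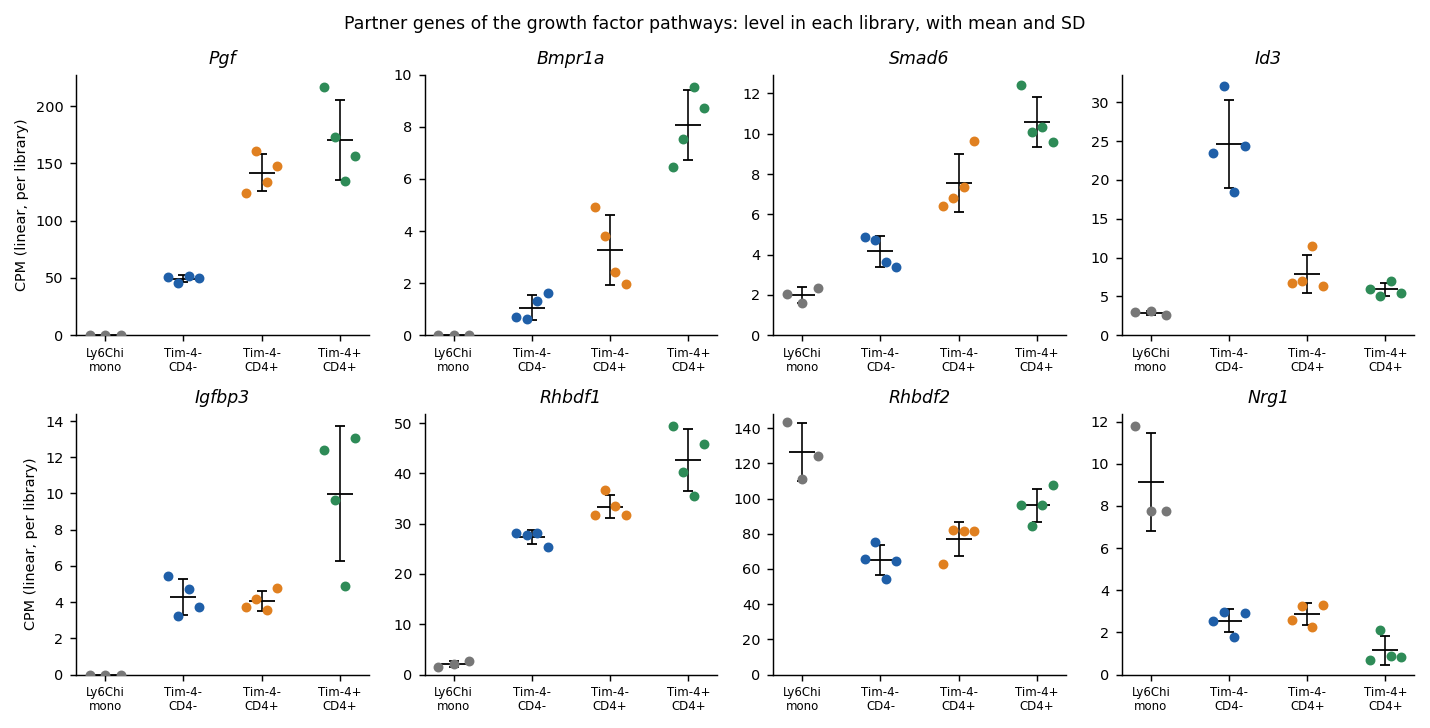
Level in every library of 8 genes of the growth factor pathways that were called between macrophage subsets, in CPM on linear axes from 0 that differ between panels, with the mean (bar) and SD of each group. Pgf, Bmpr1a, and Smad6 are higher and Id3 is lower in both CD4+ subsets than in Tim-4-CD4- macrophages, and Igfbp3, Rhbdf1, and Rhbdf2 are higher and Nrg1 lower in Tim-4+CD4+ macrophages.

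In the IGF list, 12 of 14 genes were tested, and edgeR called 0, 1, and 1 for Tim-4-CD4+ against Tim-4-CD4-, Tim-4+CD4+ against Tim-4-CD4-, and Tim-4+CD4+ against Tim-4-CD4+, where DESeq2 called 1, 2, and 1. Igfbp3, an IGF-binding protein gene, was 5.44, 3.22, 4.70, and 3.73 CPM in Tim-4-CD4-, 3.74, 4.17, 3.56, and 4.80 in the Tim-4-CD4+ subset, and 12.4, 9.61, 4.87, and 13.1 in Tim-4+CD4+ libraries. It was 2.34-fold higher in Tim-4+CD4+ than in Tim-4-CD4- macrophages (adjusted p = 0.0028) and 2.45-fold higher than in Tim-4-CD4+ (adjusted p = 0.0086). Its Tim-4+CD4+ replicate 3 lay within the Tim-4-CD4- range. Igfbp4 was the most abundant binding protein gene, at 171, 148, and 163 CPM in the subsets and 5.12 in monocytes, and the receptor gene Igf1r averaged 34.4, 39.5, and 37.8 CPM in the subsets, with no call between them by edgeR. In the VEGF list, 6 of 7 genes were tested, and edgeR called 1, 2, and 0 of them in these comparisons and DESeq2 2, 2, and 1. Besides Pgf, edgeR called the lymphatic receptor gene Flt4, 2.54-fold higher in Tim-4+CD4+ than in Tim-4-CD4- macrophages (adjusted p = 0.024). That call was lost without Tim-4-CD4- replicate 2, 3, or 4 or Tim-4+CD4+ replicate 4. Flt1, the receptor of VEGF-A, VEGF-B, and placental growth factor, was highest in monocytes, at 87.0, 52.0, and 76.5 CPM, and averaged 5.99, 2.06, and 3.35 CPM in the subsets, lower in each (largest adjusted p = 3.5e-05). In the PDGF list 3 of 4 genes were tested, and edgeR and DESeq2 both called 0 in the 3 comparisons of subsets, with an unadjusted p under 0.05 for 1 gene in 1 of them.

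Vegfa is a known target of hypoxia signaling, and 14 genes of that response were read beside it. The shares of all genes called, given above, are the background for these counts too. For Tim-4-CD4+ against Tim-4-CD4- macrophages 0 were higher and 1 lower (Ndrg1, 2.26-fold, adjusted p = 0.0013). For Tim-4+CD4+ against Tim-4-CD4- 1 was higher (Pdk1, 1.39-fold, adjusted p = 0.014) and 2 lower (Ndrg1, 1.58-fold, adjusted p = 0.025, and Egln3, 2.61-fold, adjusted p = 0.031). The latter Ndrg1 call was lost without Tim-4-CD4- replicate 1 or 3 or Tim-4+CD4+ replicate 1 or 2, and the Egln3 call without Tim-4-CD4- replicate 1 or 4 or Tim-4+CD4+ replicate 1, 3, or 4, and both were lost with only the 2 groups compared. For Tim-4+CD4+ against Tim-4-CD4+, Epas1 was higher (adjusted p = 0.015), a call lost without Tim-4-CD4+ replicate 1 or 2 or Tim-4+CD4+ replicate 4. The median log2 fold change of the 14 was -0.06 and -0.02 in the comparisons with Tim-4-CD4-. Slc2a1 averaged 48.0, 46.9, and 47.6 CPM, and Ldha 266, 257.5, and 266 CPM in the subsets. For Tim-4-CD4+ against Tim-4-CD4-, DESeq2 called 1 of the 14, and 4 had an unadjusted p under 0.05. For Tim-4+CD4+ against Tim-4-CD4- these were 4 and 6, and for Tim-4+CD4+ against Tim-4-CD4+ 1 and 2. The part of hypoxia in the Vegfa levels was not tested.

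Markers of other cells and of cell handling moved with some of these comparisons. The counts of markers called stand beside the shares of all genes given above. The 7 fibroblast markers summed to 64.6 to 97.4 CPM in Tim-4-CD4-, 77.3 to 100.4 in Tim-4-CD4+, 106.7 to 144.5 in Tim-4+CD4+, and at most 0.0372 in monocyte libraries. Of them, 4 were higher in Tim-4+CD4+ than in Tim-4-CD4- macrophages (Col1a1, Col1a2, Col3a1, and Dcn), and 0 were called for Tim-4-CD4+ against Tim-4-CD4- by edgeR or DESeq2 (0 at an unadjusted p under 0.05). The 7 enteric neuron and glia markers summed to 5.86 to 7.68 CPM in Tim-4+CD4+ and to at most 3.21 in the other subsets, with 1 called, Elavl4, a neuronal RNA-binding protein gene, at 3.88 CPM in the Tim-4+CD4+ subset and 0.168 in Tim-4-CD4-. The 7 endothelial markers summed to 22.9 to 37.7, 29.0 to 37.4, and 39.7 to 66.8 CPM in the subsets, with 1 called (Lyve1, higher in Tim-4+CD4+). B and plasma cell markers, 5 in all, summed to 276.8 to 409.8, 257.1 to 400.5, and 235.9 to 421.2 CPM in the subsets. In monocyte libraries they summed to 8.46 to 10.5 CPM. Jchain alone averaged 297, 292, and 280 CPM in the subsets. Of the 5, 1 was called, higher in Tim-4+CD4+ than in Tim-4-CD4- macrophages. The 14 dissociation response genes, among them Fos, Jun, and Egr1, summed to 32830 to 47080 CPM in macrophage libraries and to 1712 to 1895 in monocytes, and all 14 were higher in each subset than in monocytes. The macrophages came from digested gut and the monocytes from blood, so tissue preparation and cell identity cannot be told apart in the comparisons with monocytes. Between subsets, 2 of the 14 were lower in Tim-4-CD4+ (Ier2 and Nr4a1) and 5 in Tim-4+CD4+ than in Tim-4-CD4- macrophages (Egr1, Atf3, Ier2, Nr4a1, and Btg2), by 1.28- to 1.75-fold. The Ier2 call in Tim-4-CD4+ was lost without replicate 2 of either subset or Tim-4-CD4+ replicate 4, and the Atf3 call without Tim-4-CD4- replicate 2. The part of these cells and of this response in the member levels was not tested.

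For each member called between subsets, the 3 genes with the most similar levels were found by Pearson correlation of log2 CPM over the 12 macrophage libraries, among 11790 genes. The libraries share subset and depth, and the values describe likeness only. For Igf1 these were Adcy3 (r = 0.973), Fsd2 (0.973), and Eef2k (0.969), and for Pdgfc they were Rcbtb2 (0.981), Ido2 (0.980), and Il12rb1 (0.979). For Vegfa they were Lsr (0.995), Map4k1 (0.980), and Arhgef10l (0.980), all of which had a higher mean CPM in monocytes than in any subset. For Vegfb they were Wbp2 (0.958), Arrdc2 (0.954), and Phf23 (0.947). For Areg they included Tnf (0.988) and Gpi1 (0.985), with Tnf averaging 161, 111, and 110 CPM in the subsets.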

How the data were processed

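RNA was sequenced from 15 libraries of sorted cells. The authors deposited raw counts per gene without normalization. Before that they had used Trimmomatic 0.36 for trimming, STAR for alignment (build GRCm38.p4), and HTSeq 0.6.1p1 for counting on GENCODE vM11, by the submitters' processing notes and the study's methods. The strand setting is not given in the sources used here. A second set of 15 columns, the counts divided by a size factor per library, was not used. Symbols, gene positions, and exon lengths were taken from GENCODE M21, which matched 19421 of 19456 ids.

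Groups came from the sample titles. Genes were filtered with filterByExpr, which all 10 members passed, and scaled by TMM, and 1 quasi-likelihood fit of 15 libraries (R 4.3.3, edgeR 4.0.16, limma 3.58.1) gave 6 pairwise comparisons, with Benjamini-Hochberg adjustment over 15802 genes and a threshold of 0.05. SE was the log2 fold change over the square root of F. The 95% intervals of log2 fold changes used this SE with a normal quantile, so they are narrower than intervals matched to the F test. CPM used TMM-scaled totals, and CPM per kb divided these by exon length. Reads carry no molecular identifiers, so counting intervals (exact binomial, 95%) and floors of 3 counts cover counting error only. Libraries of a group differed by more than sampling noise, and none was merged. The fit was tested on simulated data.

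The members, gene lists, and motifs were chosen with earlier results of these data known. Named genes were the members, list genes that were called between subsets or had the highest level of their list, and, for each member called between subsets, the 3 most similar genes with a mean of at least 1 CPM (log2 CPM with a prior count of 2), not all of which are reported here. A few list genes outside this rule were named after their values were seen. Alternatives were DESeq2 1.42.0, relative log expression factors, all genes with at least 1 count, only the 2 groups compared, a replicate block by title or description number, every library thinned to the total of the smallest, a minimum change of 2-fold, and fits that each leave out 1 library. Figures were drawn with matplotlib 3.10.9. Promoter sequences are from RefSeq, and protein sequences were not used here.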

Additional observations from a re-analysis of the deposited data

Results flagged for a closer look

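In 30 groups of 4 libraries (10 members in 3 subsets), the gap of the highest or lowest library to its nearest neighbor was compared with the range of the group, a check that flags about 1 in 20 groups by chance, and 2 were found. Pdgfb in Tim-4-CD4- replicate 4 was 150.0 CPM, where the other 3 libraries lay between 158 and 159 CPM, a gap of 0.899 of the range. The whole range is narrow, and the library with the low value was the smallest, with 39388763 counts. Hbegf in Tim-4-CD4+ replicate 3 was 7.10 CPM, where the next library was 5.39 CPM, a gap of 0.846 of the range. That library was also the highest of its group for Vegfb, Pdgfa, Pdgfb, Pdgfc, and Areg.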

How the results depend on the processing

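Each of the 60 log2 fold changes (10 members in 6 comparisons) was recomputed under 22 other settings, and no called value lost its call or changed direction in any of them. Requiring a change of at least 2-fold left 1 member of the 2 for Tim-4+CD4+ against Tim-4-CD4+ macrophages (Vegfa, without Igf1), 3 of the 4 for Tim-4-CD4+ against Tim-4-CD4- (without Igf1), and 4 of the 5 for Tim-4+CD4+ against Tim-4-CD4- (without Vegfb). Values that changed direction were near 0 and not called. Counts thinned to the smallest library gave Vegfc -0.16 for Tim-4-CD4- against monocytes and 0.22 for Tim-4+CD4+ against Tim-4-CD4-, and only the 2 groups compared gave Pdgfb -0.0018 for Tim-4+CD4+ against Tim-4-CD4+. With counts thinned, Vegfc was also called lower in Tim-4-CD4+ macrophages than in monocytes (-1.61, adjusted p = 0.043). The cause was not tested.

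Leaving out each library gave the following log2 ranges for results that changed direction. For Vegfc they were -0.13 to 0.86 (Tim-4-CD4- against monocytes), -0.29 to 0.71 (Tim-4+CD4+ against monocytes), and -0.48 to 0.16 (Tim-4+CD4+ against Tim-4-CD4-). For Tim-4-CD4+ against Tim-4-CD4- they were -0.0487 to 0.17 for Vegfb, -0.21 to 0.0594 for Pdgfa, and -0.20 to 0.10 for Bmp2. For Tim-4+CD4+ against Tim-4-CD4+ they were -0.19 to 0.0587 for Pdgfa, -0.0542 to 0.12 for Pdgfb, -0.33 to 0.39 for Areg, and -0.22 to 0.0805 for Bmp2.

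The replicate numbers gave no clear pairing of the samples: same-numbered libraries correlated at -0.12 to 0.16 in their deviations from the group means. Of 8 libraries per comparison of subsets, 0, 4, and 2 correlated best with their own title number. By description number these were 4, 4, and 3. The paper describes independent sorts of pooled mice. Whether the subsets of a sort came from the same mice is not given in the sources used here. The main fit took the libraries as unpaired, and a shared sort that the numbers do not follow was not tested. Titles and descriptions number the Tim-4-CD4+ libraries differently. With a replicate block by title or by description number, 9, 9, 9, 4, 5, and 2 members were called in the 6 comparisons, as without it. Among the genes of the pathway lists, the block by title ended the calls of Bmpr1a (Tim-4+CD4+ against Tim-4-CD4+), Csf1 (Tim-4-CD4+ against Tim-4-CD4-), and Egln3 and Ptn (Tim-4+CD4+ against Tim-4-CD4-), and the block by description ended that of Ptn. The block by title moved the uncalled Areg value of Tim-4+CD4+ against Tim-4-CD4+ to -0.0266, and the block by description moved Vegfc of Tim-4+CD4+ against Tim-4-CD4- to 0.0726. Calls over all genes for Tim-4-CD4+ against Tim-4-CD4- were 1579 without the block and 1318 or 1618 with it. For Tim-4+CD4+ against Tim-4-CD4+, DESeq2 called 904 of 19456 genes without the filter, and edgeR called 565 of the 15802 that passed it. With a minimum change of 2-fold, 472, 1335, and 282 genes were called in the 3 comparisons of subsets, beside 1579, 3673, and 565 without it.

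Depth limits Vegfc and Areg, with as few as 3 and 8 counts in a macrophage library, and the ratios to monocytes with few counts.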

Other observations

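Among 20 other trophic ligand genes, 15 were tested. Grn, which encodes progranulin, was the most abundant of them per length, and averaged 1196 CPM in Tim-4-CD4- macrophages, 1303 in the Tim-4-CD4+ subset, 1439 in Tim-4+CD4+, and 1006 in monocytes. Osm, the oncostatin M gene, averaged 98.6, 82.4, and 79.1 CPM in the subsets and 3.56 in monocytes (log2 4.80 ± 0.18, edgeR adjusted p = 1.1e-13, for Tim-4-CD4-). Hgf, a growth factor gene for epithelium, averaged 21.7, 25.9, and 19.8 CPM in the subsets and 16.7 in monocytes, and no comparison of it was called (adjusted p = 0.30, 0.080, and 0.50 against monocytes).

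Csf1, the growth factor that macrophages depend on, was lower in the CD4+ subsets. It was 7.59, 8.78, 7.16, and 7.64 CPM in Tim-4-CD4- libraries, 5.59, 5.16, 5.56, and 5.21 in the Tim-4-CD4+ subset, and 5.36, 5.12, 4.87, and 4.68 in Tim-4+CD4+. No library of either CD4+ subset reached the Tim-4-CD4- range. Csf1 was 1.56-fold lower in Tim-4+CD4+ (edgeR adjusted p = 0.0058) and 1.45-fold lower in Tim-4-CD4+ macrophages (adjusted p = 0.036), and the latter call was lost when any 1 library of either subset was left out (highest adjusted p = 0.11) and with all genes of at least 1 count. Angpt2 and Ptn were called higher in Tim-4+CD4+ than in Tim-4-CD4- macrophages at under 1 CPM (adjusted p = 0.022 and 0.042). The Angpt2 call was lost without Tim-4-CD4- replicate 3 or 4 or Tim-4+CD4+ replicate 1, and the Ptn call in 9 of the 15 fits that leave out a library and with all genes of at least 1 count.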
